A study of Drosophila melanogaster with 6 samples.

Results

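The genes described here encode the subunits of Mediator, the multiprotein complex that relays signals from DNA-bound transcription factors to RNA polymerase II. They were taken by symbol: every gene whose symbol starts with MED followed by a digit, together with kto, skd, Cdk8 and CycC, which are the fly names of the kinase module genes. The rule found 29 of the 14869 genes counted in the files. Of these, 27 were tested, having 10 or more scaled counts on average. The other 2, MED9 and MED23, had no read in any library, which allows up to 3 counts per library, so the filter did not remove them for the way they changed. In the release 6 fly annotation the exons of MED9 lie in full within those of CG42518 on the same strand, whereas MED23 overlaps no gene. The reads were counted on the earlier BDGP5 assembly, so this overlap does not settle either 0. Whether the values of 0 came from the counting was not tested, and neither gene can be called silent.

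The libraries came from S2-DRSC cells, a Drosophila melanogaster line of embryonic, blood cell-like origin. The labels give the same line for all libraries and name no allele or transgene, and all cells received either the solvent DMSO or JQ1. JQ1 is a compound that blocks the binding of BET bromodomains to acetylated lysines, and FSH, the product of fs(1)h, is the only BET family protein of the fly. The dose of JQ1 was 10 µM and its durations were 1, 2, 4 and 20 h, while DMSO was given for 1 or 20 h. Each of the 6 conditions had 1 polyA RNA library, so the 4 JQ1 libraries served as the treated group and the 2 DMSO libraries as the control group. The labels do not say whether these came from separate cultures, and each p-value therefore measures only the spread between these libraries, durations included.

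Mediator is built of a head and a middle module, which contact RNA polymerase II, a tail module, which is the landing site of many activators, and MED14, a long subunit that joins the 3 of them. These parts make up the core. A separate kinase module docks on the core reversibly: Cdk8 is a cyclin-dependent kinase, CycC its cyclin, kto (the fly MED12) is needed for the activity of the kinase, and skd (the fly MED13) tethers the module to the core, roles worked out largely in yeast and human cells. In the fly, kto and skd act as a pair in patterning of the eye and wing. MED25, MED26, MED27, MED28 and MED30 are placed in different modules by different authors; here MED28 and MED30 were counted with the head, MED26 with the middle, and MED25 and MED27 with the tail.

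Between 24547077 and 29823608 reads per library fell on genes. The counts were scaled so that the 100 genes most abundant in DMSO kept a constant median level, after the normalisation of the study. These 100 genes took 28.5 to 29.0% of the gene reads with DMSO and 33.0 to 36.3% with JQ1. Under this scaling the median tested gene had a log2 fold change of -0.63, against 0.00 with size factors over all genes, so every change below is relative to the abundant genes unless stated otherwise. In bulk RNA, fewer cells of a type and less RNA per cell cannot be told apart. All 7 blood cell markers (srp, Pxn, Hml, Col4a1, vkg, Sr-CI and NimC1) were detected, with a summed level of 614178 to 624830 scaled counts with DMSO and 585917 to 1058000 with JQ1, the highest sum being that of the 20 h library. The markers did not move together: at 20 h the log2 fold change was 3.29 for Hml, 2.27 for NimC1 and 1.28 for Col4a1, but -1.59 for Sr-CI, -0.61 for Pxn and -0.38 for srp. Of 9 markers of other cell types 6 were matched, only elav had 10 counts or more in every library, and their sum was 603 with DMSO and 222 to 348 with JQ1. The part of these marker shifts in the results was not tested. The transcript of fs(1)h itself stood at 13088 and 13599 scaled counts with DMSO and between 8417 and 9472 with JQ1. Its log2 fold change was -0.59 with an SE of 0.10 (adjusted p = 0.00799, edgeR).

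Transcripts of most Mediator subunits were lower after JQ1 treatment, and none was up-regulated. In edgeR's quasi-likelihood test of the 4 JQ1 against the 2 DMSO libraries, 22 of the 27 tested members were down-regulated at an adjusted p under 0.05, where 44.3% of the 8690 tested genes were (3853 genes). That share includes genes of low count. With a minimum of 50 scaled counts the calls were 22 members and 3737 of 7340 genes, so the background share was higher. None of the members was up-regulated, against 1.43% of all genes, and none was higher at an unadjusted p under 0.05 either. With TMM factors, and with size factors over all genes, 1 member was higher at an unadjusted p under 0.05. The 5 members that did not pass were MED19, skd, MED24, MED4 and MED22. The median log2 fold change was -0.79 over the members and -0.63 over all tested genes. In 26 members every JQ1 library lay below both DMSO libraries, which was so for 67.9% of all tested genes; the exception was MED19. The reverse order was seen in none of the members and in 3.74% of all genes.

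The size of these counts depended on the scaling and on single libraries. With size factors over all genes the calls fell to 3 members (Cdk8, MED25 and MED27) and 482 genes in all, and with TMM factors to the same 3 members plus CycC and 565 genes. Leaving out either DMSO library left a lone control without a replicate, so only effect sizes are given. Without the 1 h control the median log2 fold change was -0.82 over the members and -0.66 over all tested genes. Without the 20 h control these medians were -0.78 and -0.61. With the 1 and 20 h libraries alone and duration as a block, no member and no other gene passed. An unadjusted p under 0.05 was then seen in 11 of 27 members and in 2642 of 8690 tested genes. Without the 2 h or the 4 h JQ1 library 12 and 14 members passed as lower, beside 2202 and 2658 of the 8690 tested genes. Without the 1 h or the 20 h library it was 19 and 25 members, beside 3886 and 5586 genes. The members' count thus rose and fell with that of all genes. Complete separation of the groups was seen in 11 members and 27.4% of genes with size factors over all genes, and in 13 members and 29.7% of genes with TMM.

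**Figure D1:**
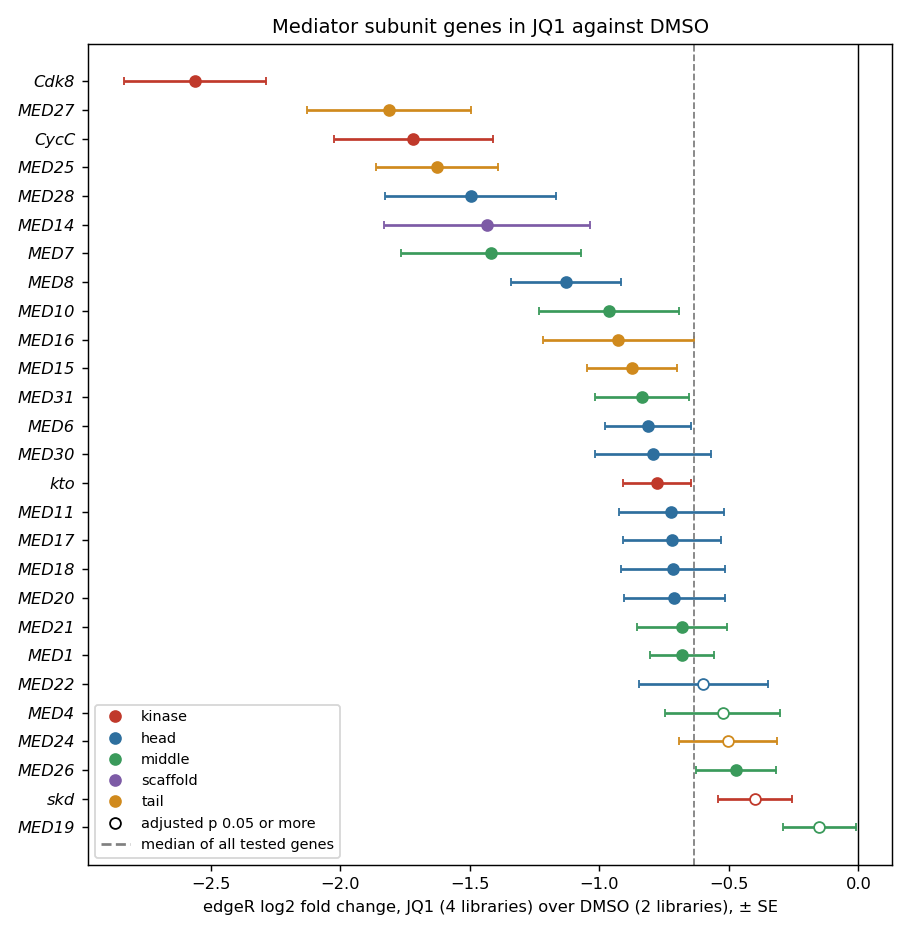
Change of each of the 27 tested Mediator genes, ordered by size. Points give edgeR's log2 fold change of 4 JQ1 over 2 DMSO libraries with bars of 1 SE, colour gives the module, open points did not pass an adjusted p of 0.05, and the dashed line is the median of all tested genes at -0.63. The genes run from Cdk8 at -2.56 to MED19 at -0.15.

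The kinase module split into a strongly lowered enzyme pair and a pair of large subunits with smaller changes, a division made after the values were seen. Cdk8 (FBgn0015618), the kinase, was the most strongly lowered of all tested members. Its scaled counts were 304 with DMSO for 1 h and 275 for 20 h, and 63.3, 35.8, 46.1 and 51.1 after 1, 2, 4 and 20 h of JQ1. Every JQ1 library was far below both controls, from the first hour to the last. JQ1 over DMSO gave a log2 fold change of -2.56 ± 0.27 (SE; adjusted p = 0.00457, edgeR), and only 0.840% of all tested genes had a lower value. At 2 h, the lowest point, Cdk8 was at 12.3% of its mean DMSO level, a log2 fold change of -2.98 with a 95% Poisson interval of -3.51 to -2.57 that covers counting error only.

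CycC (FBgn0004597), the cyclin partner of Cdk8, followed a similar course. It had 709 and 680 scaled counts with DMSO, and 318, 157, 177 and 192 after 1, 2, 4 and 20 h of JQ1. The first JQ1 library was the highest of the treated ones, and the other 3 were at 22.6, 25.5 and 27.7% of the mean DMSO level. The log2 fold change was -1.72 ± 0.31 (adjusted p = 0.00823, edgeR), and 7.08% of all tested genes had a lower one. The calls of Cdk8 and CycC held without each JQ1 library in turn, with adjusted p-values of 0.00137 to 0.0248 for Cdk8 and 0.00424 to 0.0306 for CycC in edgeR. With only the 20 h or only the 1 h control, the log2 fold change was -2.49 and -2.63 for Cdk8 and -1.69 and -1.75 for CycC.

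kto (FBgn0001324), the subunit that switches the kinase on, had 3750 and 3833 scaled counts with DMSO and 2302, 2144, 1986 and 2421 with JQ1. The groups did not overlap, and the 4 treated libraries lay close to each other. The log2 fold change of -0.78 ± 0.13 passed the test (adjusted p = 0.00751, edgeR), and did so without each JQ1 library in turn, but not with size factors over all genes (0.357). With only the 20 h or only the 1 h control the change was -0.79 and -0.76. skd (FBgn0003415), the tether of the module, had 4519 and 4614 scaled counts with DMSO and 3007, 3640, 3298 and 3923 with JQ1. All of its JQ1 values were below the controls, the 20 h value being the nearest to them. Its log2 fold change of -0.40 ± 0.14 did not pass (adjusted p = 0.0569, edgeR), although it did without the 20 h library (0.00930), and it was 0.24 with size factors over all genes.

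**Figure D2:**
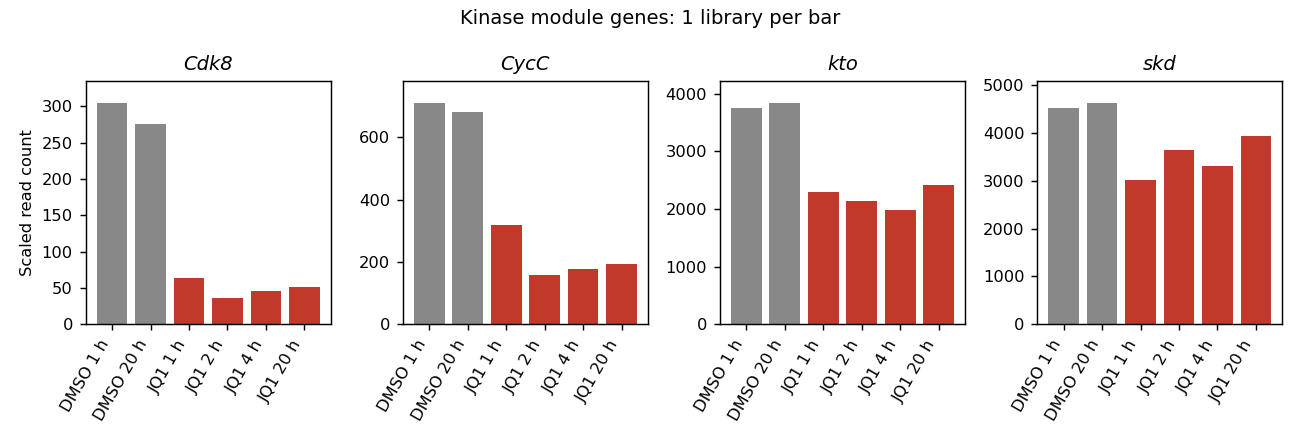
Scaled read counts of the 4 kinase module genes, each bar 1 library, grey for DMSO and red for JQ1, with a separate linear axis from 0 for each gene. Cdk8 fell from 304 and 275 with DMSO to between 35.8 and 63.3, and CycC from 709 and 680 to between 157 and 318, while skd stayed between 3007 and 3923 with JQ1.

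Set against the core, the median over the 4 kinase module genes was lower at every time. Their median log2 fold change was -0.92, -1.48, -1.45 and -1.25 at 1, 2, 4 and 20 h, where the 23 tested core genes had -0.69, -0.91, -0.95 and -0.63. Each gene was then set against the 500 tested genes outside Mediator nearest to it in DMSO level, because the change under JQ1 varied with abundance. On this relative scale the kinase module median minus the core median was -0.20, -0.67, -0.57 and -0.65 at the 4 times, values that hardly moved with the scaling. With 4 genes of which 2 had large and 2 had small changes, the median lies between the pairs and describes neither. The time points share the same DMSO libraries, so they are not independent of each other, and without the 1 h control the difference at 4 h was -0.49.

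The head module, which forms a main contact with the polymerase, was lowered in 8 of 9 genes in edgeR's test, where 44.3% of all tested genes were, with a median log2 fold change of -0.72 against -0.63 for all genes. Most of its members moved by a similar amount: MED11, MED17, MED18 and MED20 lay between -0.72 and -0.71, MED30 at -0.79 and MED6 at -0.81. MED6 and MED17 are among the subunits kept from yeast to man. MED8 was lower still at -1.13. MED22 had the smallest change of the module, -0.60 ± 0.25, and did not pass (adjusted p = 0.0859, edgeR).

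MED28 was the head gene with the largest change. Its scaled counts were 453 and 494 with DMSO and 241, 133, 111 and 185 after 1, 2, 4 and 20 h of JQ1. The treated libraries lay between 23.5 and 50.9% of the mean DMSO level, with the lowest at 4 h. JQ1 over DMSO gave a log2 fold change of -1.50 ± 0.33 (adjusted p = 0.0134, edgeR), and it passed without each JQ1 library in turn (0.00738 to 0.0433). With only the 20 h or only the 1 h control the change was -1.56 and -1.43.

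The middle module was lowered in 6 of its 8 tested genes, beside 44.3% of all genes, and its median log2 fold change of -0.68 was close to the -0.63 of all genes. Its genes ran from MED7 at -1.42 to MED19 at -0.15. MED7, which with MED21 forms the hinge of the module in yeast, had 588 and 604 scaled counts with DMSO and 225, 157, 162 and 347 with JQ1. It was low through the first 4 h and higher in the 20 h library, and its log2 fold change was -1.42 ± 0.35 (adjusted p = 0.0181, edgeR). MED21 itself was at -0.68, as was MED1, a subunit that binds nuclear receptors in mammals. MED10 reached -0.96 and MED31 -0.84.

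MED19 was the member least changed. It had 1722 and 1808 scaled counts with DMSO and 1493, 1575, 1528 and 1763 with JQ1, the last of these lying between both controls. This subunit, which in the fly binds Hox and GATA factors, had a log2 fold change of -0.15 ± 0.14 (adjusted p = 0.393, edgeR). The sign of that value followed the scaling: it was 0.05 with 500 index genes, 0.11 with total counts, 0.43 with TMM and 0.48 with size factors over all genes. Neither the TMM value nor the last one passed (adjusted p = 0.0620 and 0.0590, edgeR).

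MED26, which in human cells recruits elongation factors, had 4847 and 5152 scaled counts with DMSO and 3091, 3594, 3447 and 4281 with JQ1. The log2 fold change of -0.47 ± 0.15 was the smallest that passed (adjusted p = 0.0431, edgeR), and it no longer passed without the 1, 2 or 4 h JQ1 library (0.0676, 0.0973 and 0.0949). With only the 20 h or only the 1 h control the change of MED26 was -0.52 and -0.43. With TMM factors its value was 0.11 and with size factors over all genes 0.16. MED4 had 451 and 383 scaled counts with DMSO and 279, 239, 309 and 334 with JQ1. Its controls were the farthest apart among the tested members, with a log2 ratio of -0.23 for 20 h over 1 h, and its log2 fold change of -0.52 ± 0.22 did not pass (adjusted p = 0.0906, edgeR).

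MED14, the subunit that joins the modules, had the lowest values of the core relative to its abundance at 1, 2 and 4 h, but not at 20 h. It had 3835 and 3989 scaled counts with DMSO and 1249, 825, 1195 and 2528 after 1, 2, 4 and 20 h of JQ1. The first 3 JQ1 libraries were at 31.9, 21.1 and 30.6% of the mean DMSO level and the 20 h library at 64.6%. Only 0.4% of its 500 neighbours in abundance had a lower value at 1 h, and the same share at 2 h, against 32.8% at 20 h. Over all 4 libraries the log2 fold change was -1.43 ± 0.40 (adjusted p = 0.0265, edgeR). Dropping the 20 h library gave an adjusted p of 0.00129, and dropping the 1, 2 or 4 h library gave 0.0537, 0.0504 and 0.0696, so the call rested on keeping those 3. With only the 20 h or only the 1 h control the log2 fold change was -1.46 and -1.40.

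The tail, which receives activators, was lowered in 4 of 5 tested genes, beside 44.3% of all genes, with a median log2 fold change of -0.93 against -0.63 for all genes. MED27 had 451 and 469 scaled counts with DMSO and 191, 112, 88.4 and 132 with JQ1. The level was lowest at 4 h, at 19.2% of the mean DMSO level, and stayed low at 20 h. The log2 fold change of -1.81 ± 0.32 (adjusted p = 0.00798, edgeR) was the lowest of the core.

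MED25, which binds acidic activators in mammals, had 1408 and 1288 scaled counts with DMSO and 431, 313, 454 and 548 with JQ1. All treated libraries were well below both controls, and the 2 h library was the lowest at 23.2% of the mean DMSO level. The log2 fold change was -1.63 ± 0.24 (adjusted p = 0.00586, edgeR). MED25 and MED27 passed without each JQ1 library in turn (0.00147 to 0.0248 and 0.00494 to 0.0317) and under all 4 other scalings. With only the 20 h or only the 1 h control the change was -1.56 and -1.69 for MED25, and -1.84 and -1.78 for MED27.

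MED15, a docking site for SREBP and SMAD factors in animals, was at -0.87 ± 0.17, and passed the test. MED16, a coactivator subunit that with MED23 serves several activators in fly cells, was at -0.93 ± 0.29 (adjusted p = 0.0387, edgeR). Its adjusted p was 0.00194 without the 20 h JQ1 library and 0.0685 to 0.0893 without the 1, 2 or 4 h JQ1 library. With only the 20 h or only the 1 h control the change of MED16 was -0.91 and -0.95. MED24 had 1650 and 1813 scaled counts with DMSO and 1001, 1178, 1219 and 1489 with JQ1. Its treated values were below both controls and ordered with duration, the smallest difference being that at 20 h. The log2 fold change of -0.50 ± 0.19 did not pass (adjusted p = 0.0643, edgeR), and was 0.08 with TMM and 0.13 with size factors over all genes.

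Over the time course the median of the members was already below 0 after 1 h and was lowest at 4 h, or at 2 h with 500 index genes, TMM or size factors over all genes. Their median log2 fold change was -0.72, -0.91, -0.95 and -0.65 at 1, 2, 4 and 20 h, beside -0.54, -0.65, -0.81 and -0.59 for all tested genes. With 1 JQ1 library per time these values carry no replicate check. At 1 h 7 of the 27 members were below 50% of their mean DMSO level, where 19.4% of all tested genes were. At 2 h it was 10 members and 31.1% of genes, at 4 h 13 members and 39.5%, and at 20 h 7 members and 31.4%. Cdk8, CycC, MED25, MED27 and MED8 were among the 7 at 20 h, along with MED28 and MED10. With TMM the counts were 3, 7, 5 and 3 members. The controls differed little: DMSO at 20 h over 1 h had a median of 0.06 over the members, with a range of -0.23 to 0.21, and 0.05 over all genes.

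The duration at which a member was lowest was 1 h in 5 genes, 2 h in 12, 4 h in 10 and 20 h in none. Among all tested genes these shares were 19.7, 15.2, 36.5 and 28.6%. Under 4 other scalings, tried after the data were seen, the 2 h count was between 11 and 14 members, where 15.9 to 19.4% of genes were lowest at 2 h. The 20 h count rose from 0 to 2 members with 500 index genes, 6 with total counts, 3 with size factors over all genes and 4 with TMM, where 34.8 to 43.5% of genes were lowest at 20 h. Every tested member was higher at 20 h than at 4 h, as were 66.3% of all genes, but that count fell to 15 members with total counts and 16 with size factors over all genes, with 48.4 and 50.7% of genes. A level over 1.5-fold higher at 20 h than at 4 h was seen in MED14, MED7, MED28 and MED16, 4 of 27 members, and in 25.7% of all genes. MED7 went from 162 to 347 scaled counts and MED16 from 413 to 673, while Cdk8 went from 46.1 to 51.1 and CycC from 177 to 192.

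**Figure D3:**
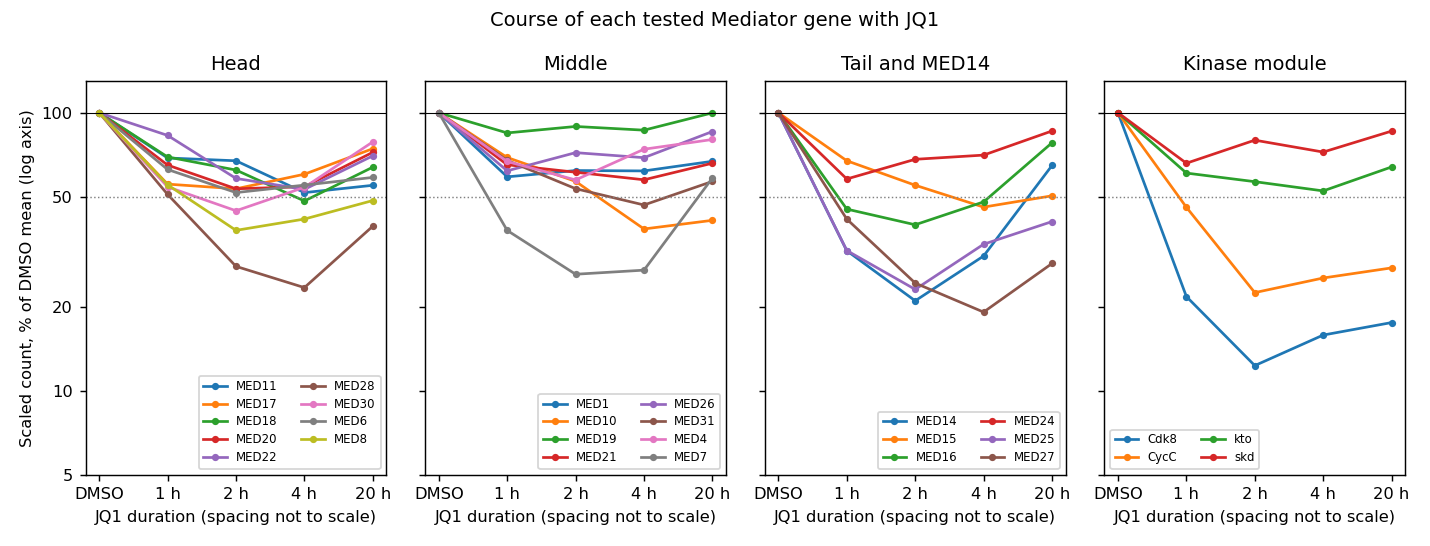
Level of each tested Mediator gene as percent of its mean DMSO level on a log axis, against JQ1 duration (not to scale), 1 library per point, in panels for head, middle, tail with MED14, and kinase module. The dotted line marks 50%. MED14, MED7, MED28 and MED16 bend upward most from 4 to 20 h, Cdk8 and CycC stay low, and MED19 stays between 84.6 and 99.9%.

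Compared with genes of like abundance, the Mediator genes as a whole were close to the middle. The median over the members of the log2 fold change minus that of 500 neighbours was -0.14, -0.02, 0.04 and 0.03 at 1, 2, 4 and 20 h, the 2 h value being 0.03 with 100 neighbours. Single members lay on both sides of that median. Above the upper quartile of their neighbours were 2, 2, 3 and 4 of the 27 members at 1, 2, 4 and 20 h. Below the lower quartile were 8, 9, 8 and 5, where 25% of the neighbours lie beyond each quartile. At all 4 times 9 members lay below the median of their neighbours, 8 lay above it and 10 changed sides. The shares of all tested genes that did so were not computed. Cdk8, CycC and MED25 were under the lower quartile of their neighbours at each time. These 3 of 27 members (11.1%) compare with 8.17% of all tested genes, so the count was near the background. CycC at 1 h and MED25 at 4 h were only just under the quartile, each with 24.4% of neighbours lower. MED19 was above the upper quartile at each time, 1 member against 10.2% of genes. In 11 members no time point fell outside the quartiles, kto and skd among them. For this count the share over all tested genes was not computed, so it does not set these members apart.

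The relative values of Cdk8 were -1.43, -1.87, -1.27 and -1.38, and those of CycC -0.36, -1.02, -0.70 and -0.96. MED14 had -1.18, -1.71, -1.09 and -0.25, and so left the low end only in the last library. MED27 went from -0.47 to -1.03 at 4 h and was at -0.80 at 20 h, and MED15 moved away step by step with -0.11, -0.33, -0.51 and -0.60. MED4 had the highest single value, 0.92 at 4 h, followed by 0.74 for MED4 at 20 h and MED19 at 4 h. By module, the tail had medians of -0.40, -0.33, -0.47 and -0.57, below the core as a whole with -0.11, 0.03, 0.07 and 0.04. The 5 tail genes were split, however: at 20 h MED16 and MED24 were above the upper quartile of their neighbours, at 0.49 and 0.40, and MED15, MED25 and MED27 below the lower one.

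**Figure D4:**
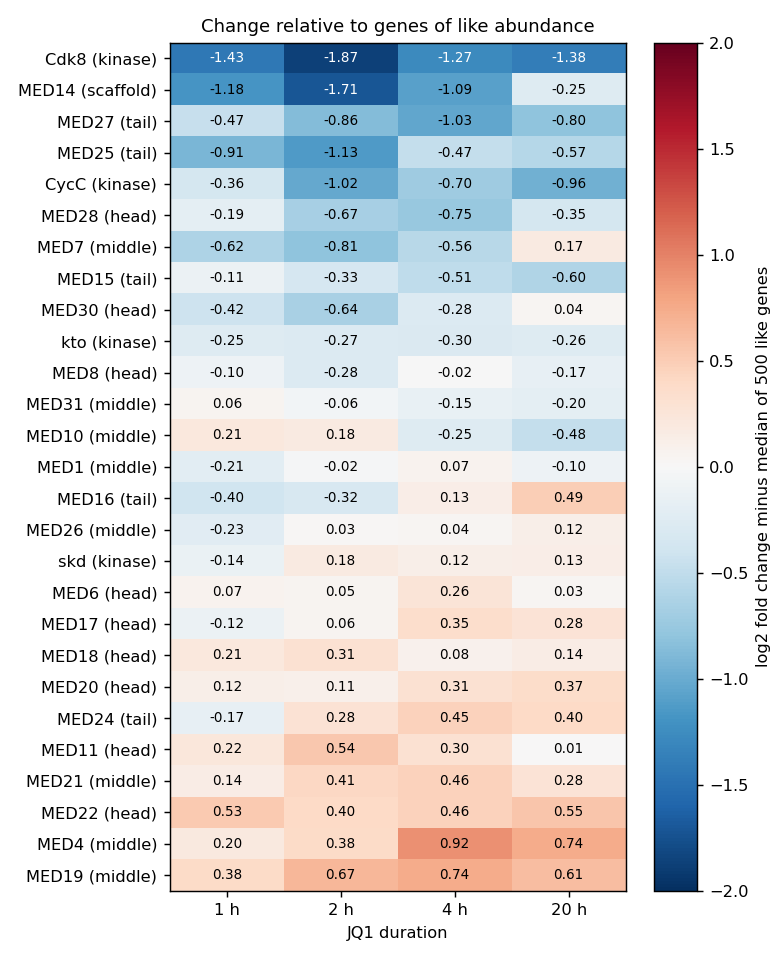
Change of each tested Mediator gene relative to genes of like abundance, at 4 JQ1 durations. Each cell gives the log2 fold change of the gene minus the median of its 500 nearest tested genes in DMSO level, blue for lower and red for higher, ordered by the mean over the durations. Cdk8 at the top runs from -1.87 to -1.27 and MED19 at the bottom from 0.38 to 0.74.

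Other parts of the transcription machinery served as a yardstick. Of 9 RNA polymerase II subunit genes 4 were down-regulated in edgeR's test and none up-regulated, with a median log2 fold change of -0.56, and of 15 TFIID genes 9 were down-regulated with a median of -0.72. The share over all tested genes was 44.3% and their median -0.63, so the polymerase count was at the background. Relative to genes of like abundance the polymerase genes had medians of 0.32, 0.28, 0.36 and 0.07 at the 4 times, and the TFIID genes -0.05, -0.13, -0.13 and 0.15. These differences between lists were not tested. The gene ix, the fly MED29, falls outside the symbol rule. It had 282 and 287 scaled counts with DMSO and 160, 171, 174 and 261 with JQ1, a log2 fold change of -0.57 ± 0.27 that did not pass (adjusted p = 0.118, edgeR).

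The members differed in level before treatment. Per kb of exon in the release 6 annotation, the mean DMSO level was highest for MED30 at 3616 scaled counts, MED31 at 1589, MED10 at 1571 and MED15 at 1551, and lowest for Cdk8 at 190, MED16 at 313 and skd at 371. Across the 27 genes, which are not independent replicates, the log2 fold change had a Spearman's rho of 0.37 with the mean DMSO level and 0.16 with exonic length, beside 0.07 and 0.04 across the 7987 tested genes with an annotated length. kto, skd and Cdk8 lie on 3L and CycC on 3R, and 9 of the 25 core genes also lie on 3L. Exons of 16 members overlap those of another gene. Because the strand setting of the counting is not given in the sources used here, reads of opposite genes may be mixed. The calls were 10 of 12 tested members without and 12 of 15 with such an overlap. Among the most strongly lowered members, Cdk8, MED25, MED28 and MED7 had none. CycC (143 bp), MED27 (101 bp) and MED14 (146 bp) overlapped a gene of the opposite strand.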

How the data were processed

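RNA-seq was done on 6 libraries of S2-DRSC cells, 1 for each treatment and time. The authors aligned single-end reads with TopHat to BDGP5 and counted them per gene with HTSeq, and the deposited values are raw read counts (versions and strand setting are not given in the sources used here). Lines naming no gene held 21.9 to 27.3% of the total and were left out. Library factors were the median, over the 100 genes most abundant in DMSO, of count over geometric mean. The 8690 genes averaging 10 or more scaled counts were tested.

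The 4 JQ1 and 2 DMSO libraries were compared in R 4.3.3 with the quasi-likelihood test of edgeR 4.0.16. The test was two-sided, p-values were adjusted over all tested genes by the Benjamini-Hochberg method, and the threshold was 0.05. The scripts were tested on simulated data. Single time points are log2((JQ1 + 1)/(mean DMSO + 1)) in scaled counts and carry no test. Relative values subtract the median of the 500 tested genes outside Mediator nearest in DMSO level.

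All tested members could be named. Full values were given for the kinase module, the 4 core genes with the lowest and the 4 with the highest log2 fold change, ix and fs(1)h. MED7 was added after its values were seen. Members and lists were chosen with earlier results of these data known. Alternatives were 4 other scalings, 2 other filters, DESeq2 (1.42.0), a pseudocount of 5, 100 neighbours, duration as a block and each library left out. Symbols, arms, exon lengths and overlaps came from a release 6 annotation. The exon lengths and overlaps were computed from its exon coordinates, while the reads had been counted on BDGP5. Promoter sequences were not analysed here.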

Additional observations from a re-analysis of the deposited data

How the results depend on the processing

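No member was called higher in any setting. The 22 members called lower in edgeR became 12 with 500 index genes, 11 with total counts, 4 with TMM and 3 with DESeq2 size factors. All genes called lower went from 3853 to 2248, 1895, 565 and 482, and those called higher from 124 to 176, 186, 436 and 459. No paired analysis was possible by replicate number because the numbers only name the libraries, and equal numbers can differ in duration. Pairing by duration instead, with a block for the shared durations of 1 and 20 h, left 0 members lower, 0 genes lower and 0 genes higher. Leaving out 1 library gave 0 to 25 members lower, 0 to 5586 genes lower and 0 to 214 genes higher. A lone control was assumed to vary like the JQ1 libraries. The other filters and the Wald test of DESeq2 called 21, 22 and 26 members lower.

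Signs turned, as log2 fold changes, with 500 index genes for MED19 (0.053), with total counts for MED19 (0.11), with TMM for MED19 (0.43), MED24 (0.083), MED26 (0.11), MED4 (0.059) and skd (0.19), and with DESeq2 factors for MED19 (0.48), MED22 (0.025), MED24 (0.13), MED26 (0.16), MED4 (0.11) and skd (0.24).

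The median over members at 1, 2, 4 and 20 h was -0.50, -0.70, -0.69 and -0.51 with 500 index genes, -0.41, -0.60, -0.60 and -0.56 with total counts, -0.17, -0.27, -0.16 and -0.088 with DESeq2 factors, and -0.19, -0.30, -0.24 and -0.15 with TMM.

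Chosen after seeing the data, the same scalings gave, for members below 50% of DMSO, 4 at 1 h and 8 at 4 h with total counts, and 3, 5 and 3 at 1, 4 and 20 h with both TMM and DESeq2 factors. Complete separation went from 26 members to 13 with TMM and 11 with DESeq2 factors. Members higher at 20 h than at 4 h went from 27 to 15 with total counts, 17 with TMM and 16 with DESeq2 factors. With 1 DMSO library as the only control the members' median relative to genes of like abundance was -0.162 to -0.134 after 1 h, -0.036 to -0.018 after 2 h, between 0.013 and 0.056 after 4 h and between 0.0090 and 0.017 after 20 h, their median at 20 h -0.66 to -0.60, and kinase minus core at 4 h -0.59 to -0.49. With 100 neighbours the relative medians at 2 and 20 h were 0.029 and 0.0082, so the sign at 2 h is not fixed. Kinase minus core at 2 h was -0.58 without the correction for abundance. The cause of these shifts was not tested. Depth limits Cdk8 most, with 42 to 72 reads per JQ1 library.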
